A study of Medicago truncatula with 6 samples.

Results

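Transcripts of 10 enzymes of monolignol synthesis and lignification are described here, out of 50897 gene models counted in root hairs of Medicago truncatula. The genes were chosen by their annotation as enzymes that make or polymerise monolignols, with earlier results of these data known. They comprise 1 hydroxycinnamoyltransferase (HCT, Medtr4g007540), 4 caffeoyl-CoA O-methyltransferases (CCoAOMT, Medtr4g085590, Medtr4g094812, Medtr4g094815 and Medtr4g094898), 1 cinnamoyl-CoA reductase-like gene (CCR-like, Medtr4g077100), 3 cinnamyl alcohol dehydrogenase-like genes (CAD-like, Medtr2g009810, Medtr3g005170 and Medtr4g077130) and 1 laccase (Medtr4g019225). Root hairs of wild-type Jemalong A17 seedlings aged 5 days were sequenced as poly(A) RNA after roots had received Nod factors (NF), the lipochitooligosaccharide signals of rhizobia, for 4 or 20 h, or water as the control. NF were applied at 10 nM, and the hairs of about 100 plants were pooled in a sample after they had been shaken off frozen root segments. The values come from 1 control library (replicate 2), 2 NF 4 h libraries and 2 NF 20 h libraries, and control replicate 1 was not analysed here. The title of the control library names 4 h, so a water control taken at 20 h is not part of these comparisons.

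Monolignols are the phenylpropanoid alcohols from which lignin is built. Phenylalanine is first turned into p-coumaroyl-CoA, HCT moves the acyl group to shikimate and back around the 3-hydroxylation step, CCoAOMT methylates caffeoyl-CoA to feruloyl-CoA, CCR reduces the CoA esters to aldehydes and CAD reduces the aldehydes to alcohols. Laccases and class III peroxidases in the cell wall then oxidise the alcohols to radicals that couple into lignin. In roots lignin is best known from xylem vessels and the Casparian strip of the endodermis, whereas feruloyl-CoA and related esters also feed wall-bound phenolics and suberin in other cells. Feruloyl and coumaroyl esters share their origin with flavonoids, which legume roots release as signals to rhizobia.

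The libraries held 39199411 to 47302574 read pairs assigned to genes, so that 3 pairs corresponded to 0.0634 to 0.0765 CPM (counts scaled to a library of 1e+06 counted pairs). All 6 of 6 root hair markers, orthologs of Arabidopsis root hair genes, were present at mean levels of 18.8 to 443 FPKM (CPM per kilobase of transcript). They were picked from the study's orthologs of such genes, most of which it reports as expressed in these samples. Their presence was thus largely set by the choice. The stele marker MtSUNN was at 0 to 0.154 CPM, from 0 to 7 pairs in a library. MtNIN, a transcription factor induced by NF, was at 4.34 CPM in the control, 27.9 and 24.8 CPM at 4 h and 46.3 and 40.8 CPM at 20 h (edgeR quasi-likelihood test, adjusted p = 0.0233 and 0.0159). MtENOD11 and MtERN1 were also higher in all 4 NF libraries than in the control. In the same test they passed at 20 h (adjusted p = 0.0268 and 0.0226) but not at 4 h (0.0858 and 0.0700). MtNIN and MtENOD11 were listed only in tables of NF-responding genes drawn from the same samples. The text of the study also names MtENOD11 as an early marker of NF perception, on the basis of earlier work. It reports a strong rise of this transcript after NF by RT-PCR on root segments from which the hairs had been removed. The number of cells and the RNA per cell behind a bulk value cannot be told apart.

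All 10 genes were detected in all 5 libraries, at very unequal levels. Medtr4g094815 was the highest with a mean of 719 FPKM (range 549 to 933), rank 89 of the 50897 gene models. Medtr4g094812 (341 FPKM), the HCT gene Medtr4g007540 (279 FPKM) and Medtr4g085590 (243 FPKM) followed. The CAD-like genes Medtr2g009810, Medtr3g005170 and Medtr4g077130 stood at 95.5, 60.0 and 13.8 FPKM. The remaining CCoAOMT gene Medtr4g094898 (2.28 FPKM), the CCR-like gene (1.07 FPKM) and the laccase (0.720 FPKM) were the scarcest. In this order the ranges over the 5 libraries overlapped between Medtr4g094812 and Medtr4g007540, between Medtr4g007540 and Medtr4g085590 and between Medtr4g077100 and Medtr4g019225, and each other pair of neighbours was separated. The HCT and CCoAOMT steps were thus each represented by abundant transcripts, whereas the CCR-like and laccase transcripts of the set were scarce. The CCR step was not without abundant transcripts, since the CCR genes Medtr5g029990 and Medtr5g056600 outside the set, named after their values were seen, had mean levels of 138 and 73.5 FPKM.

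**Figure D1:**
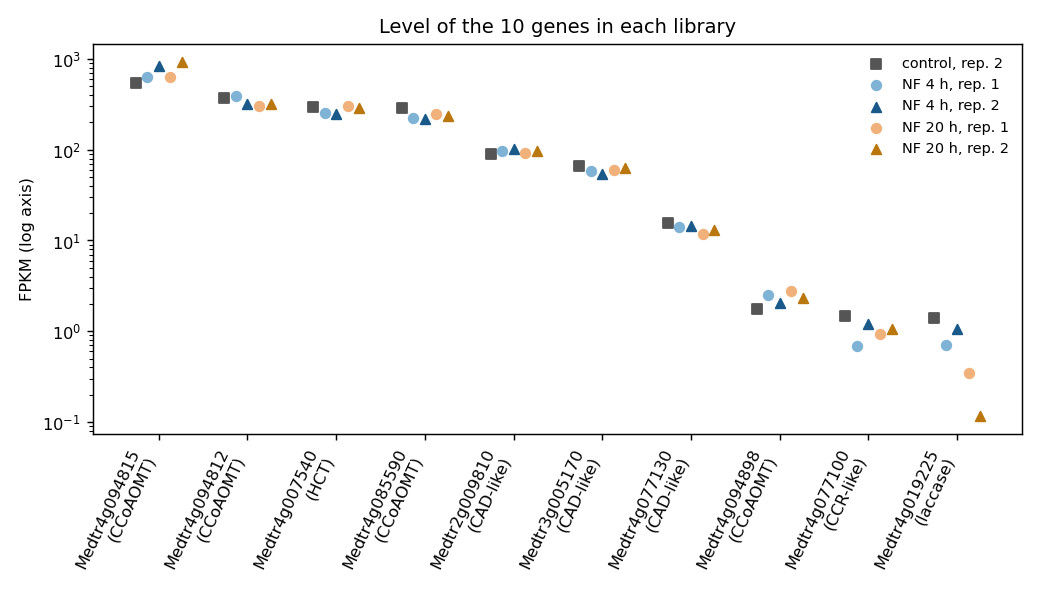
Level of each gene in FPKM (log axis) in the 5 libraries, ordered by mean; squares are the control, circles replicate 1 and triangles replicate 2. Medtr4g094815 lies on top at 549 to 933 FPKM, and the laccase Medtr4g019225 at the bottom spreads most, with both NF 20 h libraries lowest.

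None of the 10 genes passed an adjusted p of 0.05 in the fit across all genes (quasi-likelihood test of edgeR, Benjamini-Hochberg adjusted). At 4 h 0 of 10 were called beside 0.684% of all genes tested, at 20 h 0 of 10 beside 1.47%, and between 20 h and 4 h 0 of 10 beside 0.0498%. The calls among all genes tested split into 0.525% higher and 0.158% lower at 4 h, 1.1% higher and 0.371% lower at 20 h, and 0.0362% higher and 0.0136% lower from 4 to 20 h. There was 1 gene with an unadjusted p under 0.05 in each comparison, lower each time, where 9.28%, 11.8% and 10.7% of all genes tested were under that value. The median log2 fold change of the 10 genes was −0.19 at 4 h and −0.17 at 20 h, beside −0.03 and −0.00 for all genes tested. At 4 h both NF libraries lay above the control for 3 genes and below it for 6, and the same counts were found at 20 h. Of all genes tested, 29.9% lay above and 41.1% below the control in both libraries at 4 h, and 33.6% and 34.5% at 20 h. All 4 NF libraries lay above the control for 3 of the 10 genes and below it for 5, beside 19.6% and 23.6% of all genes tested. Both 20 h libraries exceeded both 4 h libraries for 3 of the 10 and lay under both for 3, beside 22.1% and 16.7%. With a single control library, the test takes the spread of the control to be that of the NF pairs. The study, which had both control replicates and its own edgeR fit, lists Medtr4g094815 and Medtr4g019225 as responding to NF. The absence of calls here thus holds for this fit and these libraries.

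**Figure D2:**
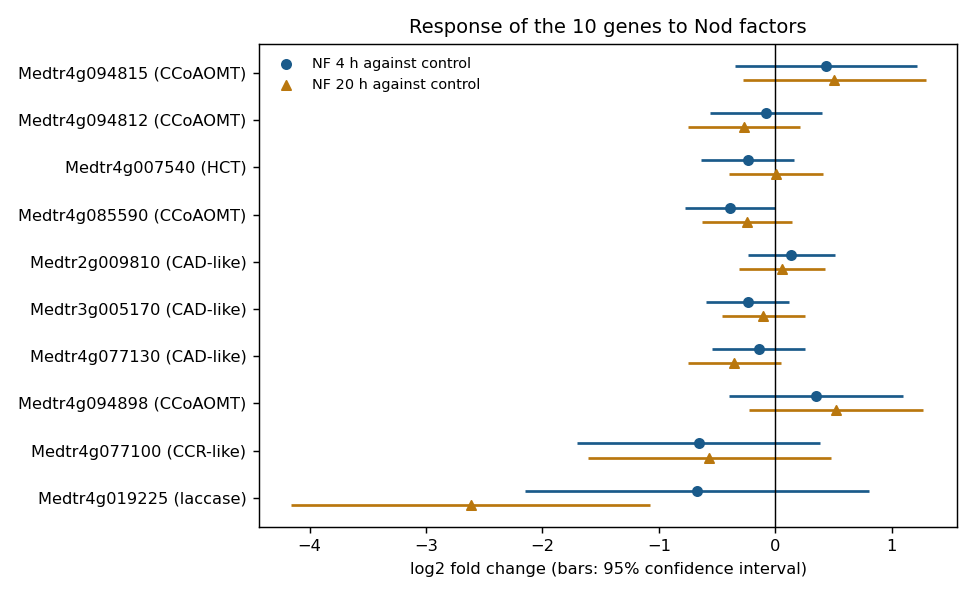
Fitted log2 fold change of each gene at 4 h (circles) and 20 h (triangles) against the control, with 95% confidence intervals from the edgeR fit. The 20 h interval of the laccase Medtr4g019225 (−4.16 to −1.08) lies farthest from 0, and the intervals of the 6 genes from Medtr4g094812 to Medtr4g077130 all lie between −0.77 and 0.51.

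The HCT gene Medtr4g007540 was at 580.0 CPM in the control, at 496 and 488 CPM at 4 h and at 594 and 569.7 CPM at 20 h. The 4 h libraries were thus the lowest, and the 20 h libraries lay on both sides of the control. Its log2 fold change was −0.24 at 4 h (95% interval −0.64 to 0.16, adjusted p = 0.837) and 0.00 at 20 h (−0.40 to 0.41, adjusted p = 0.996), which as folds are 0.642 to 1.12 and 0.757 to 1.33. Both 20 h libraries exceeded both 4 h libraries, with a log2 difference of 0.24 (SE 0.13, adjusted p = 0.663).

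The CCoAOMT genes carried most of the transcripts of the set. Medtr4g094815 was at 729 CPM in the control, at 849.8 and 1121 CPM at 4 h and at 831 and 1238 CPM at 20 h. All 4 NF libraries were above the control, and replicate 2 was the higher at both times, 1.32-fold at 4 h and 1.49-fold at 20 h. The log2 fold change was 0.43 at 4 h (SE 0.31, 95% interval −0.35 to 1.22, adjusted p = 0.859) and 0.51 at 20 h (SE 0.31, −0.28 to 1.29, adjusted p = 0.679), and neither passed the test. Without NF 20 h replicate 2 the 20 h value was 0.19, and without NF 20 h replicate 1 it was 0.76. The only control library is replicate 2, so the value of 0.19 sets replicate 1 against a control of another number. NF replicate 2 was 1.54 times that control at 4 h and 1.70 times at 20 h, and NF replicate 1 1.17 and 1.14 times. With a term for the replicate number, which leaves 1 residual degree of freedom, the log2 fold changes were 0.66 and 0.72. Both then passed (edgeR quasi-likelihood test, adjusted p = 0.0218 and 0.0104). In the fit without that term 0 of the 6 root hair markers were called in any comparison. Together they were at 1120 CPM in the control, 1205 and 1423 CPM at 4 h and 1198 and 1600.5 CPM at 20 h. This sum was also higher in replicate 2 at both times, as were 4 of the 6 markers, with the widest gap in CPM in the EXPA7 ortholog Medtr5g011210 (466 and 586 CPM at 4 h, 409 and 759 CPM at 20 h), whereas Medtr4g077910 was lower in replicate 2 at both times. Their part in the level of Medtr4g094815 was not tested.

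Medtr4g085590 was at 353 CPM in the control, 276 and 264 CPM at 4 h and 306 and 291 CPM at 20 h. The control was the highest of the 5 libraries and the 4 h libraries the lowest, without overlap between the 3 treatments. The log2 fold change at 4 h was −0.39 (SE 0.15, unadjusted p = 0.0482, adjusted p = 0.527 in the edgeR fit) and at 20 h −0.24 (SE 0.15, adjusted p = 0.687).

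Medtr4g094812, whose identifier neighbours that of Medtr4g094815, was at 403 CPM in the control, 422 and 341 CPM at 4 h and 326 and 343 CPM at 20 h. The 4 h libraries lay on both sides of the control and the 20 h libraries below it, and the log2 fold changes were −0.08 (SE 0.19, adjusted p = 0.981) and −0.27 (SE 0.19, adjusted p = 0.738). The scarce Medtr4g094898 was at 2.19 CPM in the control, 3.07 and 2.53 CPM at 4 h and 3.41 and 2.90 CPM at 20 h, from 99 to 143 pairs a library. All 4 NF libraries were higher than the control, with log2 fold changes of 0.35 (SE 0.30, adjusted p = 0.897) and 0.52 (SE 0.30, adjusted p = 0.644).

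Summed over the 4 genes, CCoAOMT transcripts were at 1213 FPKM in the control, 1259.7 and 1378 FPKM at 4 h and 1181 and 1491 FPKM at 20 h, so the sum at 20 h lay on both sides of the control. Within this sum the share of Medtr4g094815 was 45.3% in the control, 50.8% and 61.3% at 4 h and 53.0% and 62.5% at 20 h. The share was lowest in the control and highest in replicate 2 of both NF treatments. The ratio of Medtr4g094815 to Medtr4g094812 in FPKM ran in the same order, from 1.47 in the control to 1.63 and 2.67 at 4 h and 2.07 and 2.93 at 20 h. Reads that matched several positions, 6.31% to 7.28% of all reads, had been discarded before counting, so the split of counts between closely similar CCoAOMT copies is uncertain.

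**Figure D3:**
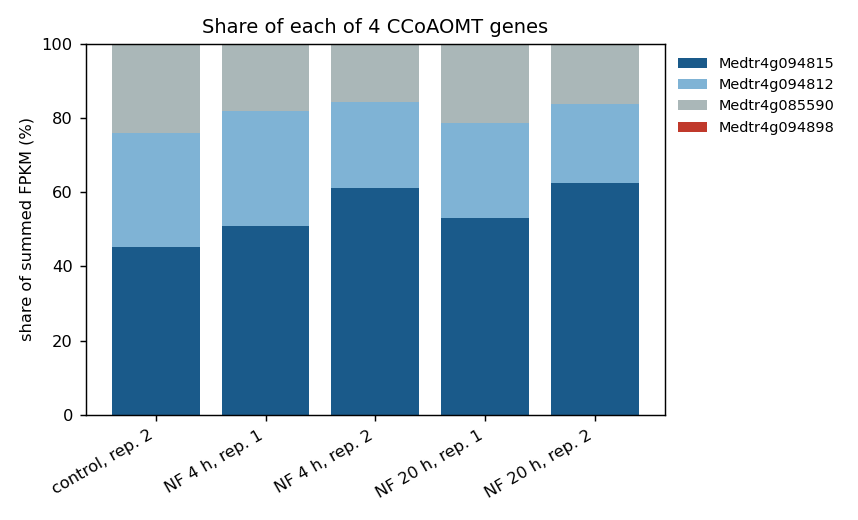
Share (%) of each of the 4 CCoAOMT genes in their summed FPKM in each library, 1 stacked bar a library. The share of Medtr4g094815 at the bottom runs from 45.3% in the control to 62.5% in NF 20 h replicate 2, and Medtr4g094898 is too small to be seen.

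The CCR-like gene Medtr4g077100 was scarce, at 2.28 CPM in the control, 1.06 and 1.84 CPM at 4 h and 1.43 and 1.65 CPM at 20 h, from 46 to 104 pairs a library. The control was the highest of the 5 libraries and the NF treatments overlapped each other. The log2 fold change was −0.66 at 4 h (95% interval −1.70 to 0.39, adjusted p = 0.818) and −0.57 at 20 h (−1.61 to 0.48, adjusted p = 0.746).

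The 3 CAD-like genes had an even summed level of 256 CPM in the control, 253 and 255 CPM at 4 h and 243 and 258 CPM at 20 h. Medtr2g009810 was at 142 CPM in the control, 153 and 159 CPM at 4 h and 143 and 152 CPM at 20 h. Its lowest and highest libraries differed 1.12-fold, the narrowest span of the 10 genes, although all 4 NF libraries were above the control. Medtr3g005170 was at 90.9 CPM in the control, 79.8 and 74.4 CPM at 4 h and 82.7 and 86.6 CPM at 20 h. Here the control was the highest and the 4 h libraries were the lowest. Medtr4g077130 was at 23.2 CPM in the control, 20.6 and 21.4 CPM at 4 h and 17.2 and 19.1 CPM at 20 h. Its libraries fell into the order control, 4 h, 20 h without overlap, with a log2 fold change of −0.35 at 20 h (SE 0.16, 95% interval −0.75 to 0.05, adjusted p = 0.503). The other log2 fold changes of the CAD-like genes against the control lay between −0.24 and 0.14.

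The laccase Medtr4g019225 had the widest span of the 10 genes, 12.1-fold between its lowest and highest library. It was counted with 128 pairs in the control, 61 and 83 pairs at 4 h and 29 and 11 pairs at 20 h, or 2.81 CPM, 1.41 and 2.12 CPM, and 0.691 and 0.233 CPM. The libraries fell into the order control, 4 h, 20 h without overlap, and NF 20 h replicate 2 held 0.337 times the CPM of NF 20 h replicate 1. At 20 h the log2 fold change was −2.61 (SE 0.62, 95% interval −4.16 to −1.08), 6.11-fold lower than the control, with an unadjusted p of 0.00649 and an adjusted p of 0.151 in the edgeR quasi-likelihood fit. Between 20 h and 4 h the log2 difference was −1.94 (SE 0.55, −3.32 to −0.57, adjusted p = 0.267), and at 4 h the log2 fold change was −0.67 (SE 0.59, adjusted p = 0.904). Whether these differences were called depended on the test, since the adjusted p at 20 h was 0.0233 with DESeq2 and 0.00393 with the edgeR exact test, which also called the difference between 20 h and 4 h (adjusted p = 0.0403). Without NF 20 h replicate 1 the log2 fold change at 20 h was −3.58 (adjusted p = 0.04997) and the difference from 4 h was −2.90 (0.158), and without NF 20 h replicate 2 they were −2.02 (0.146) and −1.34 (0.325). In these fits 1 NF 20 h library stands against 1 control, and the NF 4 h pair supplies the spread. The other laccase of the compared lists, Medtr7g065980, named after its values were seen, was far more abundant, at 259 CPM in the control, 429.6 and 449 CPM at 4 h and 224 and 234 CPM at 20 h. Its 4 h libraries were the highest, but no comparison passed (adjusted p = 0.167 at 4 h, 0.802 at 20 h and 0.0989 between them).

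**Figure D4:**
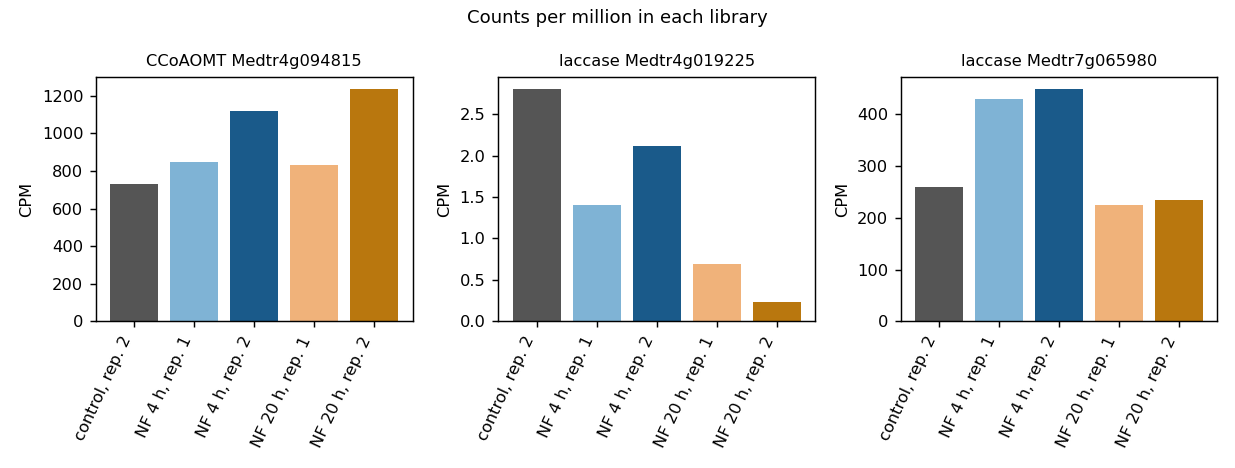
CPM in each library of the CCoAOMT gene Medtr4g094815, the laccase Medtr4g019225 and the laccase Medtr7g065980, 1 bar a library and each panel with its own axis from 0. Medtr4g094815 is lowest in the control and highest in replicate 2 of each NF treatment, Medtr4g019225 is lowest in both NF 20 h libraries, and Medtr7g065980 is highest at 4 h.

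The genes around the set were taken from lists of phenylpropanoid genes annotated in supplementary tables. Of 7 genes of the entry steps, phenylalanine ammonia-lyase (PAL), cinnamate 4-hydroxylase (C4H) and 4-coumarate-CoA ligase, 0 were called in any comparison, and 2 of the 7 were listed only in tables of NF-responding genes drawn from the same samples. The median log2 fold change of the 5 others was −0.0097 at 4 h and −0.014 at 20 h. The most abundant were the PAL gene Medtr1g064090, at 1202 CPM in the control, 1294 and 1093 CPM at 4 h and 1245 and 1134 CPM at 20 h, and the C4H gene Medtr5g075450. The latter was at 673 CPM in the control, 982 and 1012 CPM at 4 h and 918 and 1163 CPM at 20 h, with log2 fold changes of 0.57 and 0.63 (adjusted p = 0.508 and 0.330). The PAL libraries overlapped between treatments, and the C4H libraries were all above the control. Of the 5 genes not listed by response alone, 2 had an unadjusted p under 0.05 in the quasi-likelihood test at both times. These were the C4H gene and the 4-coumarate-CoA ligase gene Medtr5g007640, named after its values were seen. Both were higher at each time, where 9.28% and 11.8% of all genes tested were under that p in either direction.

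Of 7 other genes for monolignol steps (CCoAOMT, CCR, CAD and laccase), 1 fell at 20 h and 0 were called at 4 h or between the times, beside 0.371% of all genes tested that fell at 20 h. This was another CCoAOMT gene, Medtr6g091680, at 162 CPM in the control, 82.6 and 104 CPM at 4 h and 45.4 and 40.3 CPM at 20 h. Its libraries were ordered control, 4 h, 20 h without overlap, and at 20 h it was 3.79-fold lower than the control (log2 fold change −1.92, SE 0.19, adjusted p = 0.0228), a call kept in each of the 13 alternative fits. It was therefore the CCoAOMT gene outside the set, and not one of the 4 within it, that passed the test. Whether its response differed from that of the other CCoAOMT genes was not tested.

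Among 5 dirigent proteins, which direct the coupling of phenoxy radicals, 1 rose at 20 h, beside 1.1% of all genes tested, and 1 fell. Medtr4g122110 was at 10.3 CPM in the control, 17.7 and 13.3 CPM at 4 h and 33.7 and 31.1 CPM at 20 h (log2 fold change 1.65, adjusted p = 0.0446). Medtr7g093870 was at 71.4 CPM in the control, 43.9 and 52.8 CPM at 4 h and 29.4 and 33.3 CPM at 20 h (−1.19, adjusted p = 0.0487). The libraries of each gene were ordered by time without overlap, in opposite directions. Both calls were lost without NF 20 h replicate 1, at log2 fold changes of 1.59 (adjusted p = 0.0544) and −1.10 (adjusted p = 0.0723). That of Medtr7g093870 was kept in 10 of 13 alternative fits and was also lost with at least 10 counts in every library (adjusted p = 0.0504) and with mapped reads (0.0672).

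Of 10 class III peroxidases annotated as lignin biosynthetic, 6 were abundant enough to be tested and 0 were called. At 20 h their log2 fold changes ran from −3.62 to −0.34 with 3 of 6 under an unadjusted p of 0.05, beside 11.8% of all genes tested in either direction. These 3, named after their values were seen, rest on few pairs. Medtr2g084000 had 65 pairs in the control and 2 and 13 at 20 h, and Medtr2g084020 had 60, and 13 and 9. Medtr4g083710, with the value of −3.62, had 14 pairs in the control and 1 and 1 at 20 h. The most abundant, Medtr4g074995 and Medtr4g074990, were at only 1.38 to 3.57 and 1.55 to 3.19 CPM over the 5 libraries, and 3 of the 10 genes had no pair in any library, where 3 pairs correspond to at most 0.0765 CPM. In both genes the 4 h libraries lay on both sides of the control.

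On the flavonoid branch, 12 genes of chalcone synthase (CHS) and chalcone isomerase (CHI) were examined, 5 of them listed only in tables of responding genes. None was called (0 of 12 in each comparison), and of the 7 genes listed on another basis 2 had an unadjusted p under 0.05 at 20 h, both higher, with a median log2 fold change of 0.31 over the 7. The CHI gene Medtr1g115820 was at 659.9 CPM in the control, 743 and 771 CPM at 4 h and 522 and 744 CPM at 20 h, with the 20 h libraries on both sides of the control. The CHS gene Medtr5g007713 was at 201 CPM in the control, 311 and 299.9 CPM at 4 h and 323 and 567 CPM at 20 h, all 4 NF libraries above the control (adjusted p = 0.764 and 0.266).

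**Figure D5:**
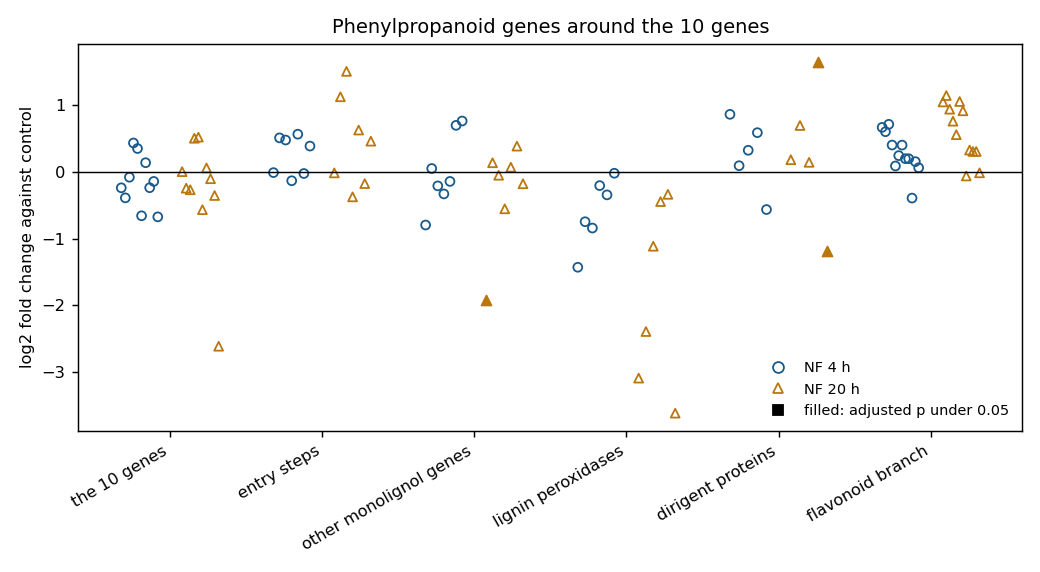
Log2 fold change against the control of each tested gene of the set and of the lists around it, at 4 h (circles) and 20 h (triangles); filled symbols have an adjusted p under 0.05 in the edgeR fit. The 10 genes hold no filled symbol, and the 3 filled symbols are the CCoAOMT gene Medtr6g091680 and 2 dirigent protein genes, all at 20 h.

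Genes with profiles like those of Medtr4g094815 and Medtr4g019225, the members that the study lists as responding to NF, were sought. These are also the most and the least abundant member. Nearness was the root mean square difference of log2(CPM + 1) values, centred on their mean over the 5 libraries. Among 10230 genes of at least 10 CPM, Medtr4g094815 was closest to Medtr3g095680, with a difference of 0.0268, Medtr2g096720, annotated as a transmembrane protein (0.0333), and Medtr8g080660, annotated as a polysaccharide biosynthesis protein (0.0390). Medtr3g095680 was at 20.8 CPM in the control, 24.9 and 34.2 CPM at 4 h and 24.1 and 35.9 CPM at 20 h, so the higher level in replicate 2 at both times was part of the likeness. Among 17060 genes of at least 1 CPM, the laccase Medtr4g019225 was closest to Medtr4g104540, annotated as a cytochrome P450 (0.0794), Medtr2g102660, annotated with an ABC transporter domain (0.0869), and Medtr7g084620, annotated as a salicylic acid carboxyl methyltransferase (0.0870). Medtr4g104540 was at 91.3 CPM in the control, 56.4 and 64.7 CPM at 4 h and 36.3 and 25.6 CPM at 20 h, and thus also lowest in NF 20 h replicate 2. With a pseudocount of 0.5, 2 of the 3 genes were shared for each member. With 0.5 the third place beside the laccase was taken by the CCoAOMT gene Medtr6g091680. These likenesses rest on 5 libraries and are a description.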

How the data were processed

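Medicago truncatula root hair RNA was sequenced as pairs of 100-base reads. The authors trimmed reads to a Phred score above 20 and a length above 30 bases, mapped them with Bowtie2 (2.0 in the submitters' processing notes) in local mode to the predicted transcriptome (Mt4.0v1), discarded reads with several positions and deposited raw counts of pairs per gene, the unit used here. They fitted edgeR themselves. Sources name a stranded and an unstranded TruSeq kit. From the counts, CPM and FPKM were computed here on the sum of counted pairs and the deposited lengths. Differences were tested with edgeR 4.0.16 in R 4.3.3 (quasi-likelihood, library-size scaling, filterByExpr, 22091 genes kept, 5 libraries in 1 fit with 1 coefficient per treatment, 2 residual degrees of freedom, Benjamini-Hochberg adjustment, threshold 0.05). Intervals are 95% from the fitted coefficient and its moderated degrees of freedom. Scripts were tested on simulated data in which 200 genes were changed by a log2 fold change of 2 in either direction. Of these, 62% were recovered at 4 h and 65.5% at 20 h. Of the calls, 10.8% and 13.8% were false at the adjusted p threshold of 0.05. Alternatives were TMM, size factors, DESeq2 1.42.0, the edgeR exact test, other filters, pairwise fits, a replicate block, a threshold of 0.01, each NF replicate left out, a pseudocount of 0.5 and, chosen after seeing the data, mapped reads in place of pairs. The 10 genes and the lists were chosen with earlier results of these data known. All 10 are named. Of each list, the genes called are named, or the 2 most abundant where none was called, and 3 genes nearest in profile to 2 members. Any other listed gene was named after its values were seen. Results of 1 further gene list are not reported here. Floors of 3 pairs cover counting error only. Figures were drawn with matplotlib 3.10.9.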

Additional observations from a re-analysis of the deposited data

How the results depend on the processing

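Against 151 calls at 4 h, 325 at 20 h and 11 between the times, DESeq2 made 577, 906 and 718, the edgeR exact test 843, 1289 and 909, and no filter 440, 717 and 308. Fitting only the groups compared gave 363 and 618 against the control. A minimum of 10 counts in every library gave 87 at 4 h and 0 between the times, a threshold of 0.01 gave 0 in each comparison, and mapped reads gave 1 between the times. Leaving out an NF replicate gave 210 to 366, 350 to 639 and 0 to 108 calls, with 0 to 1 of the 10 genes called at 20 h. The share of higher genes among calls at 20 h was 74.8%, and 49.9% with the exact test, 62.8% with DESeq2 and 55.0% with the block. Of 420 alternative values of the 10 genes, 412 kept their side of the threshold, 8 passed only under the alternative and 7 changed sign without a call. None was called in the main fit, so the values at the threshold of 0.01, which repeat the main ones, could only stay uncalled. Of the 10 genes, DESeq2 called 1 at 20 h and the exact test 1 at 20 h and 1 between the times, each time the laccase Medtr4g019225.

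Same-numbered NF replicates deviated together (r = 0.592 across 22091 genes, 2 pairs), but no source used here says whether a number marks a shared batch. From a principal component analysis of all its libraries, the study reported that there was no bias between biological repetitions. With the replicate block, 1650, 2706 and 1952 genes were called, among them 1, 2 and 1 of the 10, with 1 residual degree of freedom. The block gave Medtr4g094815 log2 fold changes of 0.66 (adjusted p = 0.0218) at 4 h and 0.72 (0.0104) at 20 h, and the laccase −2.70 (0.0136) at 20 h and −1.97 (0.0263) between the times. In the compared lists the block called, at 20 h, 4 of 7 entry-step genes, 6 of 12 flavonoid genes and 3 of 6 peroxidases, beside 2706 of 22091 genes tested. Also called at 20 h were 2 of 7 other monolignol genes, both lower, and of 5 dirigent proteins 1 in each direction. Among the root hair markers the block called 1 of 6 at 20 h, the EXPA7 ortholog Medtr5g011210 (log2 fold change 0.70, adjusted p = 0.0335). Of these, the entry-step genes Medtr1g094780 and Medtr5g098720 were listed only in tables of NF-responding genes from the same samples. So were the flavonoid genes Medtr3g083920, Medtr5g007717, Medtr5g007730 and Medtr7g016800. The block also called the laccase Medtr7g065980 at 4 h (adjusted p = 0.00486) and between the times (0.000433). The cause of these shifts was not tested.

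With 1 control library, no spread among controls was measured. The laccase rests on 11 to 128 pairs a library.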
